A study of Homo sapiens with 12 samples.

Results

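TRIM35 siRNA was compared with a negative control siRNA in TPC-1, an established human papillary thyroid cancer line that carries a RET gene fusion. The comparison used the 6 TPC-1 libraries of the series, 3 per group, out of 12 libraries in all; the libraries were taken by their line and siRNA labels. The control group was TPC-1 cells given the negative control siRNA, and the other group was TPC-1 cells given siRNA against TRIM35. Both groups were labelled wild type, and RNA was taken 24 h after transfection and read by random-primed RNA sequencing. The remaining 6 libraries hold the same treatments in K1, another papillary thyroid cancer line, and served here for a test of the difference between lines and as a reference for line identity and for single levels. The siRNA sequence, the number of siRNAs, the strandedness of the libraries and whether replicates were separate cultures were not given in the sources used here. All p-values below thus rest on the spread among 3 libraries per group, and that spread may be only technical.

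TRIM35 belongs to the tripartite motif family, whose members combine a RING domain, through which they act as E3 ubiquitin ligases, with B-box and coiled-coil domains. It has been described as a partner of the pyruvate kinase isoform PKM2, which catalyses the last step of glycolysis, and of the antiviral signalling proteins IRF7 and TRAF3. Papillary thyroid cancers are driven mainly by the MAPK cascade, and loss of the iodide-handling genes of the follicular cell is a known feature of dedifferentiated thyroid cancer lines. The series title names proliferation, metastasis and glycolysis, so the gene groups below were ordered around these processes.

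Each TPC-1 library held between 17965808 and 22436904 counts, with at least 1 count in 22526 to 24335 of the 61806 genes of the file. The title of control library 3 names another line. Across genes its log2 levels correlated with the mean of the other TPC-1 libraries at r = 0.992 and with the mean of the K1 libraries at r = 0.822, against 0.993 and 0.821 for control library 1, so it was kept as labelled. The libraries differed more by replicate number than by siRNA. The variance of log2 CPM (counts scaled to the library total) across the 14530 tested genes was split by term. Of it, 63.1% lay between replicate numbers (2 degrees of freedom), 13.98% between siRNA and control (1) and 22.9% in the rest (2). These shares are not per degree of freedom, so their sizes cannot be compared directly. On the first principal component, which held 48.9% of the variance, control libraries 1, 2 and 3 lay at 21.1, -7.03 and -29.2 and the siRNA libraries at 31.7, 11.1 and -27.7. Libraries of the same number thus lay on the same side for numbers 1 and 3, and number 2 lay between them in both groups. The third component, with 12.3% of the variance, held the control libraries between 10.6 and 11.6 and the siRNA libraries between -16.7 and -6.04.

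**Figure D1:**
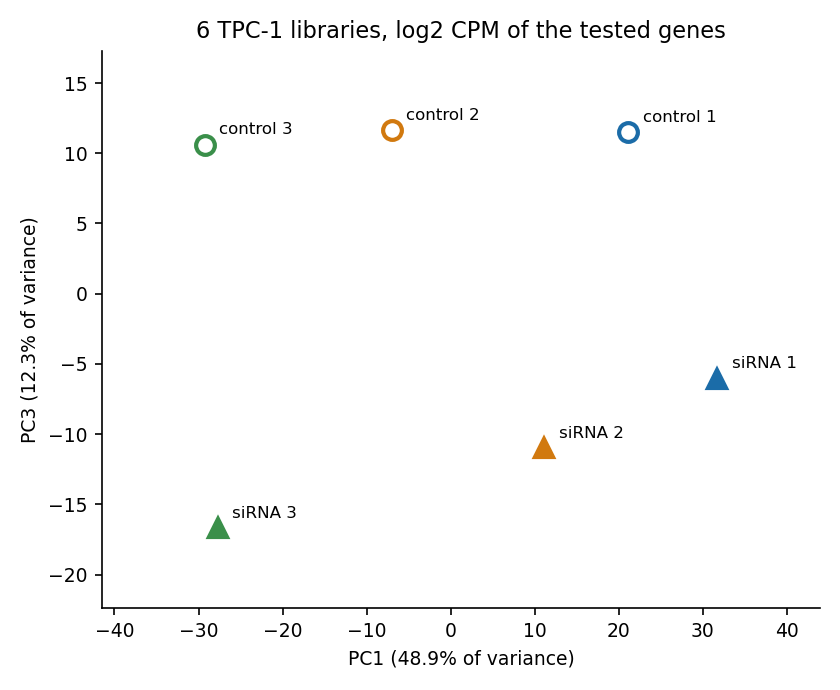
Principal components 1 and 3 of log2 CPM over the 14530 tested genes in the 6 TPC-1 libraries; open circles are control libraries, filled triangles TRIM35 siRNA libraries, and colours mark the replicate number. Component 1 orders both groups by replicate number, and component 3 holds all 3 control libraries above 10 and all 3 siRNA libraries below -6.

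The targeted transcript was only slightly lower in the siRNA libraries. TRIM35 (ENSG00000104228; hg38, chromosome 8, 27284886 to 27311272, minus strand) measured 2.86, 2.91 and 3.06 FPKM (counts scaled by gene length and library total) with control siRNA against 2.34, 2.56 and 2.58 FPKM with TRIM35 siRNA. Every siRNA library lay below every control library, and the means were 2.94 ± 0.104 and 2.49 ± 0.133 FPKM (SD, n = 3). After TRIM35 siRNA 84.7% of the control level was left, with a 95% interval of 68.6% to 104%. The log2 fold change was -0.24 (SE 0.14) and did not pass edgeR's quasi-likelihood test (unadjusted p = 0.109, adjusted p = 1.00). By replicate number the log2 differences were -0.33, -0.14 and -0.25. With the replicate number as a block the change was -0.24 (SE 0.12, edgeR unadjusted p = 0.0476, adjusted p = 0.528). In that fit 743 of all tested genes (5.11%) were lower at an unadjusted p under 0.05. The exact two-sided permutation p on log2 CPM was 0.1, the smallest that 3 against 3 libraries allow. Between 183 and 244 counts covered TRIM35 in each library.

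Among the described partners of the TRIM35 protein, PKM was highly expressed and level between groups. It measured 257, 345 and 346 FPKM with control siRNA against 282, 300.0 and 365 FPKM with TRIM35 siRNA, and the siRNA level was 99.8% of control with a 95% interval of 76.3% to 131%. TRAF3, an adaptor of antiviral and NF-kB signalling, lay at a log2 fold change of -0.04 (SE 0.14). IRF7, the interferon-inducing transcription factor, measured 1.00, 0.51 and 0.38 FPKM with control siRNA against 1.20, 0.67 and 0.73 FPKM with TRIM35 siRNA, where the 2 groups overlapped (log2 fold change 0.45, SE 0.38).

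Across the transcriptome no gene passed edgeR's quasi-likelihood test at a Benjamini-Hochberg adjusted p under 0.05 without a block (0 of 14530 tested genes, 0%). At an unadjusted p under 0.05 there were 150 genes (1.03%), of which 89 (0.613%) were higher and 61 (0.42%) lower in the siRNA libraries. DESeq2 and limma-voom with library quality weights each called 1 gene, SULF1. The fitted changes were centred on 0, with 7207 genes above and 7323 below. The intervals nevertheless bound the differences between these 2 groups of libraries. TRIM35 itself was left at 84.7% of control, so they do not bound a response to its loss. Of the 6174 genes with a mean of at least 5 FPKM, 98.9% had a 95% interval lying wholly within a 2-fold change, and 87.3% within 1.5-fold. With the replicate number as a block these shares were 99.9% and 98.7%. Of the 10924 genes at or above 1 FPKM, 96.1% lay within 2-fold and 79.3% within 1.5-fold without the block. With the block these were 98.1% and 92.7%. The median standard error of genes at or above 1 FPKM was 0.154 without the block and 0.0862 with it, on the log2 scale.

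When libraries of the same number were compared with each other, 8 genes passed the test. The replicate number as a block gave 8 called genes of 14530 (0.0551%), 7 higher (0.0482%) and 1 lower (0.00688%) in the siRNA libraries, against 1366 genes (9.4%) at an unadjusted p under 0.05. The higher genes were SULF1, which passed the filter on low counts only through its siRNA libraries, and SHOC1, NR4A3, CD24, INSIG1, PNRC1 and JUND, and the lower gene was NCAPD3. PNRC1, JUND and NCAPD3 fall outside the rule for named genes and were named after their values were seen. All 8 remained called when the block was joined by offsets for gene length and GC content, a fit that called 103 of 14339 genes (0.718%). Leaving out 1 replicate number in turn, NCAPD3 and SHOC1 were called in all 3 fits, NR4A3, INSIG1 and JUND in 2, and PNRC1 and CD24 in 1. SULF1 was also called in all 3, but with 0 counts in each control library that is no support. These fits reuse the libraries that picked the 8 genes, so they show only how far a call depended on 1 number.

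NCAPD3, a subunit of the condensin II complex that compacts mitotic chromosomes, measured 3.55, 3.92 and 5.35 FPKM with control siRNA against 2.75, 2.71 and 3.69 FPKM with TRIM35 siRNA. The groups overlapped through siRNA library 3, but each siRNA library lay below the control library of its number. The log2 fold change with the block was -0.48 (SE 0.07, edgeR adjusted p = 0.00238), and the differences by number were -0.41, -0.49 and -0.54. SHOC1, a meiotic recombination factor, measured 1.23, 0.96 and 1.12 FPKM with control siRNA against 2.32, 1.81 and 1.53 FPKM with TRIM35 siRNA. The groups did not overlap, and SHOC1 rose by 0.76 with the block (SE 0.13, edgeR adjusted p = 0.0167).

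NR4A3 and JUND are transcription factors that respond quickly to signalling. NR4A3, an orphan nuclear receptor, measured 3.59, 2.86 and 2.33 FPKM with control siRNA against 4.67, 3.90 and 3.97 FPKM with TRIM35 siRNA. It rose by 0.53 with the block (SE 0.10, edgeR adjusted p = 0.0369), and without the libraries numbered 3 its adjusted p was 0.178. JUND, a subunit of the AP-1 factor, measured 25.6, 15.5 and 13.3 FPKM with control siRNA against 39.1, 22.3 and 14.7 FPKM with TRIM35 siRNA. Its groups overlapped widely, and the difference by number shrank from 0.58 and 0.56 to 0.14 for numbers 1, 2 and 3. With the block JUND rose by 0.44 (SE 0.09, edgeR adjusted p = 0.0454), and without the libraries numbered 1 its adjusted p was 0.254.

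CD24, a glycosylated surface protein of many epithelial cancers, was the most abundant of the 8, at 164, 159 and 173 FPKM with control siRNA against 258, 189 and 216 FPKM with TRIM35 siRNA. The groups did not overlap. CD24 rose by 0.41 with the block (SE 0.08, edgeR adjusted p = 0.0369), and its adjusted p was 0.190 without the libraries numbered 1 and 0.0689 without those numbered 3. INSIG1, which retains the sterol sensor SCAP in the endoplasmic reticulum, measured 45.1, 38.3 and 34.6 FPKM with control siRNA against 60.3, 44.5 and 47.8 FPKM with TRIM35 siRNA. In FPKM the groups overlapped between control library 1 and siRNA library 2. INSIG1 rose by 0.37 (SE 0.07, edgeR adjusted p = 0.0369), and its adjusted p was 0.255 without the libraries numbered 3. PNRC1, a nuclear receptor coactivator, measured 40.0, 31.5 and 26.8 FPKM with control siRNA against 56.1, 38.7 and 33.6 FPKM with TRIM35 siRNA. Its groups overlapped, with library 1 the highest of each group. PNRC1 rose by 0.37 (SE 0.07, edgeR adjusted p = 0.0369), with adjusted p = 0.115 without the libraries numbered 1 and 0.0730 without those numbered 3.

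**Figure D2:**
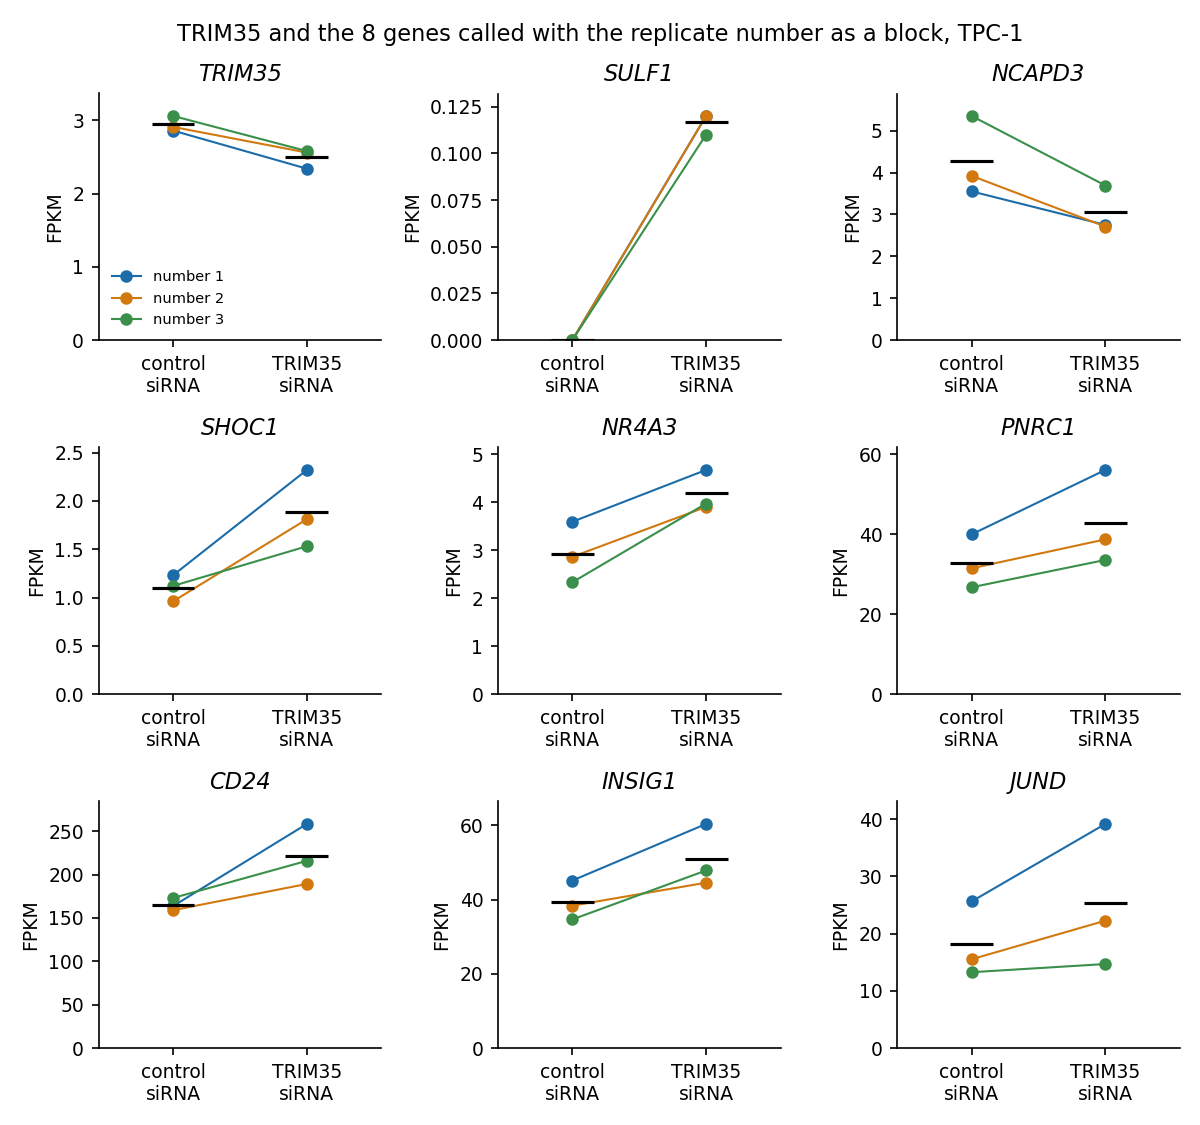
FPKM of TRIM35 and of the 8 genes called with the replicate number as a block in the 6 TPC-1 libraries; each line joins the control and the TRIM35 siRNA library of the same replicate number, black bars are group means, and each panel has its own axis from 0. TRIM35 falls from 2.94 to 2.49 FPKM on average, SULF1 is listed at 0 in all 3 control libraries, and NCAPD3, PNRC1 and JUND differ within each number although their groups overlap.

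SULF1 had the smallest p of all tested genes and was at the edge of detection. This extracellular sulfatase, which trims heparan sulfate (ENSG00000137573; hg38, chromosome 8, 69466624 to 69660915, plus strand), had 0 counts in each control library and 21, 24 and 23 counts in the siRNA libraries, or 0.12, 0.12 and 0.11 FPKM. Against a floor of 3 counts over the control group its level was at least 20.1-fold higher in the siRNA group. Its edgeR adjusted p was 0.304 without the block and 5.28e-04 with it, and 0.00232 by DESeq2. With 0 counts in control, SULF1 could pass the filter on low counts only through its siRNA libraries, so these p-values describe a gene that had to differ and are no support for a response. SULF1 averaged 0.0300 FPKM in the K1 control libraries and 0.00333 FPKM in the K1 siRNA libraries.

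SULF1 was 1 of 6 genes that had no count in any control library and at least 5 counts in every siRNA library. No gene had the reverse pattern. DCN, the small leucine-rich proteoglycan decorin, had 11, 12 and 9 counts in the siRNA libraries, at least 9.47-fold above the floor. NEFL, the neurofilament light chain, had 10, 8 and 11 counts, at least 8.58-fold above it. ITIH5, a heavy chain of the inter-alpha-trypsin inhibitors, had 8, 7 and 9 counts. APLNR, the apelin receptor, had 8, 6 and 6, and the netrin receptor gene DCC had 7, 5 and 5. Only SULF1 of the 6 passed the filter. Without that filter edgeR called SULF1 and DCN (adjusted p = 5e-08 and 0.0427), and the other 4 lay between 0.0948 and 0.982. All 6 were picked for having no control count, so these p-values are no support for a response. GASK1B, a Golgi-associated protein gene singled out after its values were seen, had 4, 2 and 2 counts in control and 19, 17 and 13 in siRNA libraries (log2 fold change 2.41, SE 0.51, edgeR adjusted p = 1.00, and 0.0893 with the block). Floors cover counting error only.

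Genes with the clearest separation towards higher levels in siRNA libraries changed by less than 2-fold. Of the tested genes, 403 (2.77%) had a higher CPM in every siRNA library than in any control library, and 305 (2.1%) lay lower. Among the 12 genes with the smallest p at or above 1 FPKM, log2 fold changes ran from 0.34 to 0.77, with edgeR adjusted p = 1.00 for each and 3 called with the block (SHOC1, NR4A3 and CD24). PIK3IP1, a membrane inhibitor of PI3-kinase, measured 1.25, 1.01 and 1.41 FPKM with control siRNA against 2.15, 1.71 and 1.96 FPKM with TRIM35 siRNA (log2 fold change 0.66, SE 0.19). KCNJ16, an inward-rectifier potassium channel, lay at 0.47 (SE 0.14), and FXYD2, a regulator of the sodium pump, at 0.65 (SE 0.23). The FXYD2 difference shrank from 1.33 in the first number to 0.09 in the third.

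CDKN2B encodes the CDK4 and CDK6 inhibitor p15. It measured 2.37, 1.96 and 1.70 FPKM with control siRNA against 3.60, 2.40 and 2.75 FPKM with TRIM35 siRNA (log2 fold change 0.53, SE 0.19). UBE2L6, the conjugating enzyme for the interferon-induced modifier ISG15, was among the tightest, at 8.85, 9.18 and 9.29 FPKM against 11.7, 11.4 and 11.5 FPKM (0.34, SE 0.12). KLHL14 lay at 0.46 (SE 0.15), the zinc finger gene ZNF182 at 0.42 (SE 0.15) and the long noncoding RNA OLMALINC at 0.40 (SE 0.13). The antisense gene BSG-AS1 lay at 0.68 (SE 0.22), and without stranded counting its reads cannot be told apart from those of BSG.

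On the lower side the 12 genes with the smallest p lay between -1.07 and -0.31, with edgeR adjusted p = 1.00 for each and none called with the block (lowest adjusted p = 0.0987, DGCR8). DGCR8, the RNA-binding partner of DROSHA in microRNA processing, measured 3.15, 3.45 and 3.29 FPKM with control siRNA against 2.75, 2.15 and 2.44 FPKM with TRIM35 siRNA (log2 fold change -0.43, SE 0.13). HBEGF, an EGF receptor ligand, measured 3.17, 3.83 and 3.89 FPKM against 2.07, 2.64 and 3.00 FPKM (-0.50, SE 0.18). IL6R, the interleukin-6 receptor, lay at -0.40 (SE 0.16), the serotonin receptor gene HTR7 at -0.42 (SE 0.17) and EHBP1L1, an adaptor of endosomal trafficking, at -0.31 (SE 0.13). All of these lay lower in each of the 3 numbers, which follows from their choice among genes without overlap.

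The remaining 7 on the lower side were low-abundance or noncoding genes. SAMD15 lay at -0.54 (SE 0.21), LINC02970 at -0.50 (SE 0.19) and the pseudogene ZNF887P at -0.99 (SE 0.40). The antisense genes RUNX3-AS1, TM4SF19-AS1, GAS5-AS1 and LPP-AS2 lay between -1.07 and -0.46, and their reads cannot be told apart from those of the overlapping genes. All 24 genes of both sides were chosen from genes without overlap in CPM, so each had to lie in 1 direction in all 3 numbers. Of all tested genes, 2147 (14.8%) lay higher in all 3 numbers and 2419 (16.6%) lower.

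The RNA interference machinery, which an siRNA engages, was described by 13 genes, with a median log2 fold change of -0.04 against -0.00 over all tested genes. After DGCR8, the next member was TARBP2, the Dicer partner, at -0.22 (SE 0.14). AGO2, the slicing Argonaute, measured 7.33, 5.69 and 7.76 FPKM with control siRNA against 6.95, 5.30 and 6.76 FPKM with TRIM35 siRNA (-0.13, SE 0.15).

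Of the proliferation genes, those of DNA replication lay slightly lower and those of mitosis did not. The replication list, the MCM helicase, origin licensing and fork genes, lay at a median of -0.11, and 37 of 40 members were below 0. None was called with or without the block (MCM2, MCM10 and ORC1 were with the offsets added). In no member did the groups separate fully, against 2.1% of all tested genes lower and 2.77% higher. In all 3 numbers 21 members were lower, against 16.6% of all tested genes, and none higher. With the block 11 members were lower at an unadjusted p under 0.05 and none higher, against 743 lower (5.11%) and 623 higher (4.29%) of all tested genes. MCM10, which activates the replicative helicase, measured 11.2, 12.8 and 13.6 FPKM with control siRNA against 8.01, 10.9 and 11.6 FPKM with TRIM35 siRNA (log2 fold change -0.30, SE 0.17). ORC1, the origin recognition subunit, lay at -0.38 (SE 0.28), the licensing factor CDC6 at -0.21 (SE 0.16) and MCM6 at -0.18 (SE 0.14). The medians by number were -0.26, -0.07 and -0.07. Without siRNA library 1 the median was -0.003, whereas leaving out any other library gave -0.18 to -0.07. Leaving out 1 library leaves the replicate numbers unequal between the groups; without both libraries numbered 1, and with the block, the replication median was -0.07.

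The 36 mitosis genes had a median of -0.02, with 17 above and 19 below 0. KIF20A, a kinesin of cytokinesis, lay at 0.15 (SE 0.13), the centromeric histone CENPA at 0.18 (SE 0.16) and CDC20, the activator of the anaphase-promoting complex, at -0.09 (SE 0.12). The G1 control list of cyclins, kinases and inhibitors had a median of -0.06 over 21 tested genes, 14 of them below 0. CCND1, cyclin D1, measured 58.3, 71.3 and 76.5 FPKM with control siRNA against 45.4, 57.4 and 68.7 FPKM with TRIM35 siRNA. It was lower in each number although the groups overlapped (-0.26, SE 0.18, and -0.28, SE 0.07, edgeR adjusted p = 0.195 with the block). CDC25A, the phosphatase that activates CDK2, lay at -0.22 (SE 0.19). The inhibitor genes CDKN1B (p27) and CDKN1C (p57) lay at 0.23 (SE 0.14) and 0.60 (SE 0.26). Without siRNA library 1 the G1 median was 0.01, and with the block and without both libraries numbered 1 it was -0.06.

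Glycolysis genes were centred on 0. Of 25 tested members 12 lay above and 13 below, the median was -0.00, and none was called with or without the block. The 23 members other than ALDOC and SLC2A3 lay between -0.26 and 0.17. HK2, the inducible hexokinase, measured 25.1, 22.2 and 21.2 FPKM with control siRNA against 24.0, 20.3 and 20.6 FPKM with TRIM35 siRNA. LDHA, which makes lactate, measured 789, 765 and 733 FPKM against 846, 823 and 785 FPKM (0.10, SE 0.14). Its interval ran from 86.4% to 133% of control. HK1 lay at -0.13 (SE 0.20), PFKM at -0.10 (SE 0.15), the regulatory kinase PFKFB3 at -0.13 (SE 0.13), ENO2 at 0.13 (SE 0.12) and the lactate transporter SLC16A1 at -0.12 (SE 0.12). GAPDH lay at 0.10 (SE 0.16). ALDOC, the brain aldolase, was low, at 0.39, 0.53 and 0.27 FPKM with control siRNA against 0.25, 0.15 and 0.10 FPKM with TRIM35 siRNA (-1.28, SE 0.45, edgeR adjusted p = 1.00). The glucose transporter SLC2A3 was lower still in level, at 0.11, 0.10 and 0.13 FPKM against 0.20, 0.20 and 0.19 FPKM (0.82, SE 0.33). The glycolysis median stayed between -0.08 and 0.04 when any single library was left out.

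Genes tied to invasion and metastasis showed no common direction. Mesenchymal genes lay at a median of 0.03, and 14 of 21 tested members were above 0. The matrix glycoprotein SPARC lay at 0.12 (SE 0.12), the gelatinase MMP2 at 0.13 (SE 0.13) and the actin-binding TAGLN at -0.21 (SE 0.16). Epithelial genes, of which 12 of 28 passed the filter on low counts, had a median of 0.06, with 7 above 0. KRT7, a simple-epithelial keratin, lay at 0.42 (SE 0.20), the epithelial factor ELF3 at 0.60 (SE 0.32) and the tight junction gene CLDN1 at 0.16 (SE 0.18). Invasion proteases lay at a median of -0.06, and 13 of 21 were below 0. Urokinase, PLAU, measured 132, 139 and 127 FPKM with control siRNA against 118, 125 and 114 FPKM with TRIM35 siRNA. The FPKM ranges did not overlap, although the TMM-scaled CPM did, and the log2 fold change was -0.16 (SE 0.12). MMP14 lay at -0.11 (SE 0.12) and ADAM12 at -0.24 (SE 0.20). None of these genes was called, with or without the block. ELF3 was called when the block was joined by the length and GC offsets (edgeR adjusted p = 0.0269).

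Adhesion genes leaned lower. Their median was -0.06, with 20 of 24 tested members below 0. In all 3 numbers 10 were lower, against 16.6% of all tested genes, and none higher. LAMB3, a laminin beta chain of basement membranes, measured 31.3, 35.6 and 39.2 FPKM with control siRNA against 29.4, 21.6 and 35.5 FPKM with TRIM35 siRNA. The groups overlapped, and siRNA library 2 was the lowest (-0.30, SE 0.17). ITGA6, which binds that laminin, lay at -0.22 (SE 0.19) and the transmembrane protein CDCP1 at -0.19 (SE 0.16). Without siRNA library 2 the list median was 0.00, and with the block and without both libraries numbered 2 it was -0.05. TGF-beta and YAP target genes had a median of 0.03 over 22 members. CCN1, a matrix-associated YAP target, lay at 0.22 (SE 0.18), and NT5E, the ectonucleotidase CD73, at -0.21 (SE 0.16).

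MAPK output genes split evenly, with a median of 0.03, 12 above and 11 below 0. JUN measured 80.0, 67.8 and 61.2 FPKM with control siRNA against 99.8, 71.3 and 73.2 FPKM with TRIM35 siRNA (0.22, SE 0.16). JUNB lay at 0.26 (SE 0.15), while the ETS factor ETV5, a standard readout of the cascade, lay at -0.20 (SE 0.15).

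Cholesterol synthesis genes lay higher as a group, by a small amount. Their median was 0.12, with 22 of 26 tested members above 0 and 4 below. In 13 members the level was higher in all 3 numbers, against 14.8% of all tested genes, and in 1 it was lower. In 5 members every siRNA library lay above every control library in CPM, against 2.77% of all tested genes. At an unadjusted p under 0.05, 1 member was higher without the block (0.613% of all tested genes) and 8 with it (4.29%), and none was lower. INSIG1 was called with the block, and with length and GC offsets added HMGCS1 was called too. HMGCS1, which makes HMG-CoA, measured 21.9, 23.6 and 27.2 FPKM with control siRNA against 27.8, 27.7 and 33.9 FPKM with TRIM35 siRNA. In FPKM each siRNA library exceeded each control library, although the TMM-scaled CPM overlapped (0.30, SE 0.14), and the differences by number were 0.31, 0.27 and 0.31. MSMO1, the sterol C4 methyl oxidase, measured 66.9, 68.2 and 65.3 FPKM against 80.7, 77.2 and 79.8 FPKM (0.24, SE 0.11). HSD17B7, the sterol ketoreductase, lay at 0.29 (SE 0.14). The list's medians by number were 0.16, 0.07 and 0.13, and leaving out any single library gave 0.09 to 0.16.

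Hypoxia genes showed a like shift. Their median was 0.10, with 20 of 23 tested members above 0. In all 3 numbers 11 were higher, against 14.8% of all tested genes, and 1 lower. BNIP3L, a mitophagy receptor, measured 65.3, 59.7 and 64.0 FPKM with control siRNA against 81.5, 71.0 and 74.4 FPKM with TRIM35 siRNA. The groups did not overlap (0.26, SE 0.12). Its paralogue BNIP3 lay at 0.29 (SE 0.18) and PLOD2, the collagen lysyl hydroxylase, at 0.22 (SE 0.15). No hypoxia gene was called with or without the block, and BNIP3 and BNIP3L were called when the block was joined by the length and GC offsets. At an unadjusted p under 0.05, 1 member was higher without the block (0.613% of all tested genes) and 6 with it (4.29%), and none was lower. Leaving out any single library gave medians of 0.10 to 0.13.

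**Figure D3:**
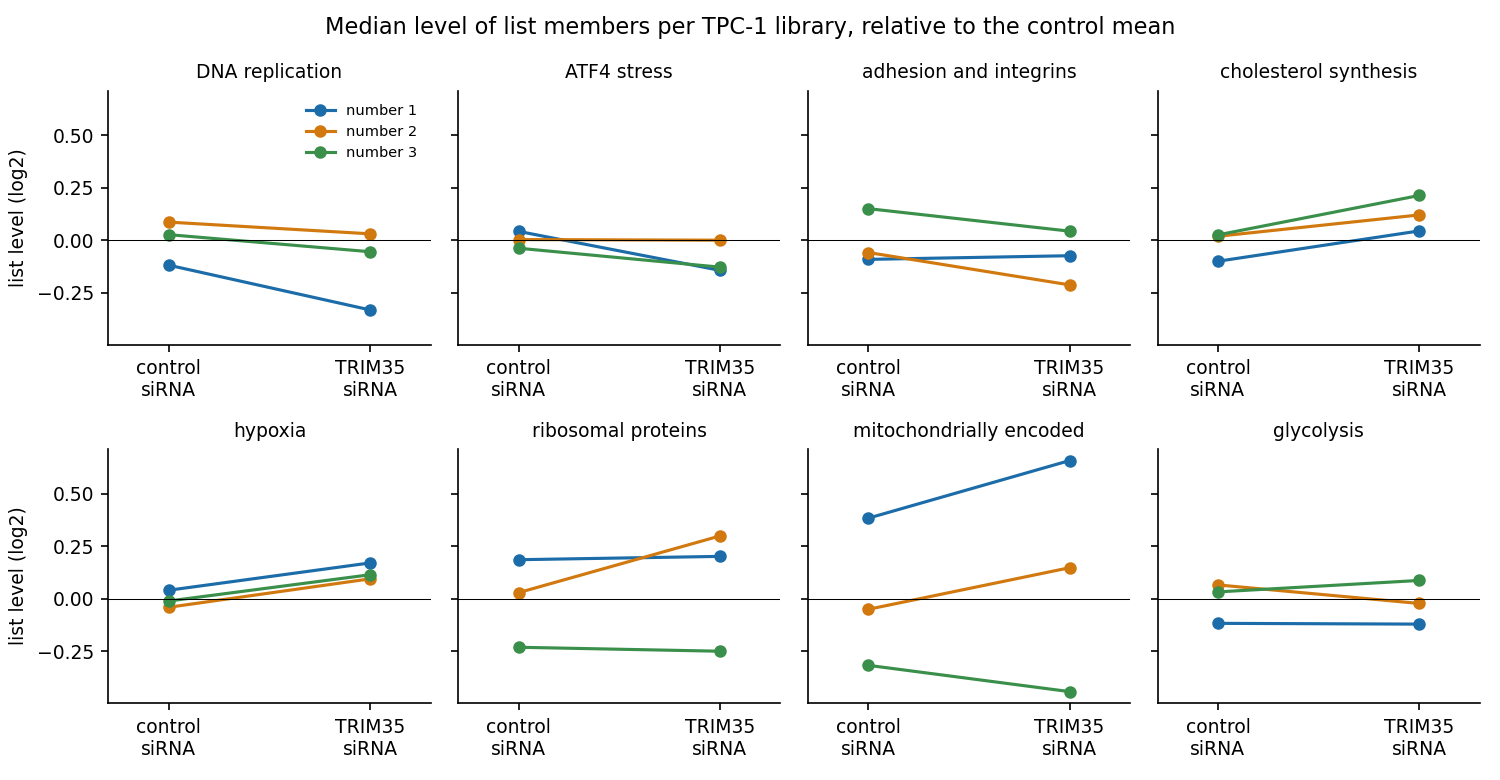
Median log2 level of the tested members of 8 gene lists in each TPC-1 library, relative to each gene's mean over the control libraries; lines join the control and TRIM35 siRNA library of the same replicate number. Cholesterol synthesis and hypoxia genes lie higher in the siRNA library of every number, whereas mitochondrially encoded genes are ordered by number in both groups and number 3 goes down.

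No gene of the stress response lists was called with or without the block, but HYOU1 and HSPA8 were with the length and GC offsets added. ATF4 target genes, which handle amino acid shortage, lay at a median of -0.10, and 22 of 30 tested members were below 0 and 13 lower in all 3 numbers (16.6% of all tested genes). SLC3A2, the heavy chain of amino acid exchangers, measured 42.8, 46.4 and 39.7 FPKM with control siRNA against 35.1, 38.2 and 35.8 FPKM with TRIM35 siRNA. The groups did not overlap (-0.24, SE 0.12). The glutathione-degrading CHAC1 lay at -0.41 (SE 0.22) and the glycine transporter SLC6A9 at -0.44 (SE 0.20), but DDIT4, an mTORC1 inhibitor, lay at 0.24 (SE 0.12). None of the ATF4 genes was called, and leaving out any single library gave medians of -0.14 to -0.07.

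Chaperones of the endoplasmic reticulum lay at a median of -0.04, and 16 of 20 were below 0; HYOU1 lay at -0.30 (SE 0.21). Heat shock genes had a median of -0.04. HSPA8, the constitutive HSC70 chaperone, followed the replicate number more than the siRNA. It measured 399, 810 and 877 FPKM with control siRNA against 281, 554 and 803 FPKM with TRIM35 siRNA. Its log2 fold change was -0.34 (SE 0.37), and -0.40 (SE 0.09, edgeR adjusted p = 0.101) with the block. The co-chaperone STIP1 lay at -0.18 (SE 0.16). NRF2 targets had a median of 0.02, with AKR1C3 at 0.21 (SE 0.14) and OSGIN1 at -0.34 (SE 0.21).

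Genes of p53 and apoptosis were also centred near 0, at medians of -0.02 over 25 members and 0.01 over 28. BBC3, the BH3-only protein PUMA, lay at 0.44 (SE 0.22). The death receptor FAS measured 1.6, 1.73 and 1.72 FPKM with control siRNA against 1.38, 1.47 and 1.56 FPKM with TRIM35 siRNA (-0.20, SE 0.12). The p53-induced nuclease AEN lay at -0.20 (SE 0.13).

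Interferon-stimulated genes, which can respond to double-stranded RNA, were centred near 0. They had a median of 0.01 over 36 tested members, with 19 above and 17 below 0. IRF9, which carries the interferon signal to the nucleus, lay at 0.56 (SE 0.31) but below 1 FPKM in all 6 libraries. The RNA sensor OAS2 lay at 0.38 (SE 0.20) and HERC6 at -0.27 (SE 0.16). NF-kB and inflammatory genes lay at a median of 0.06, and 20 of 28 were above 0. The chemokine CCL2 lay at 0.34 (SE 0.20), with differences of 0.58, 0.44 and -0.12 by number. NFKB2 lay at 0.19 (SE 0.12), and PTGS2, cyclooxygenase 2, at -0.33 (SE 0.21). None of these genes was called with or without the block.

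**Figure D4:**
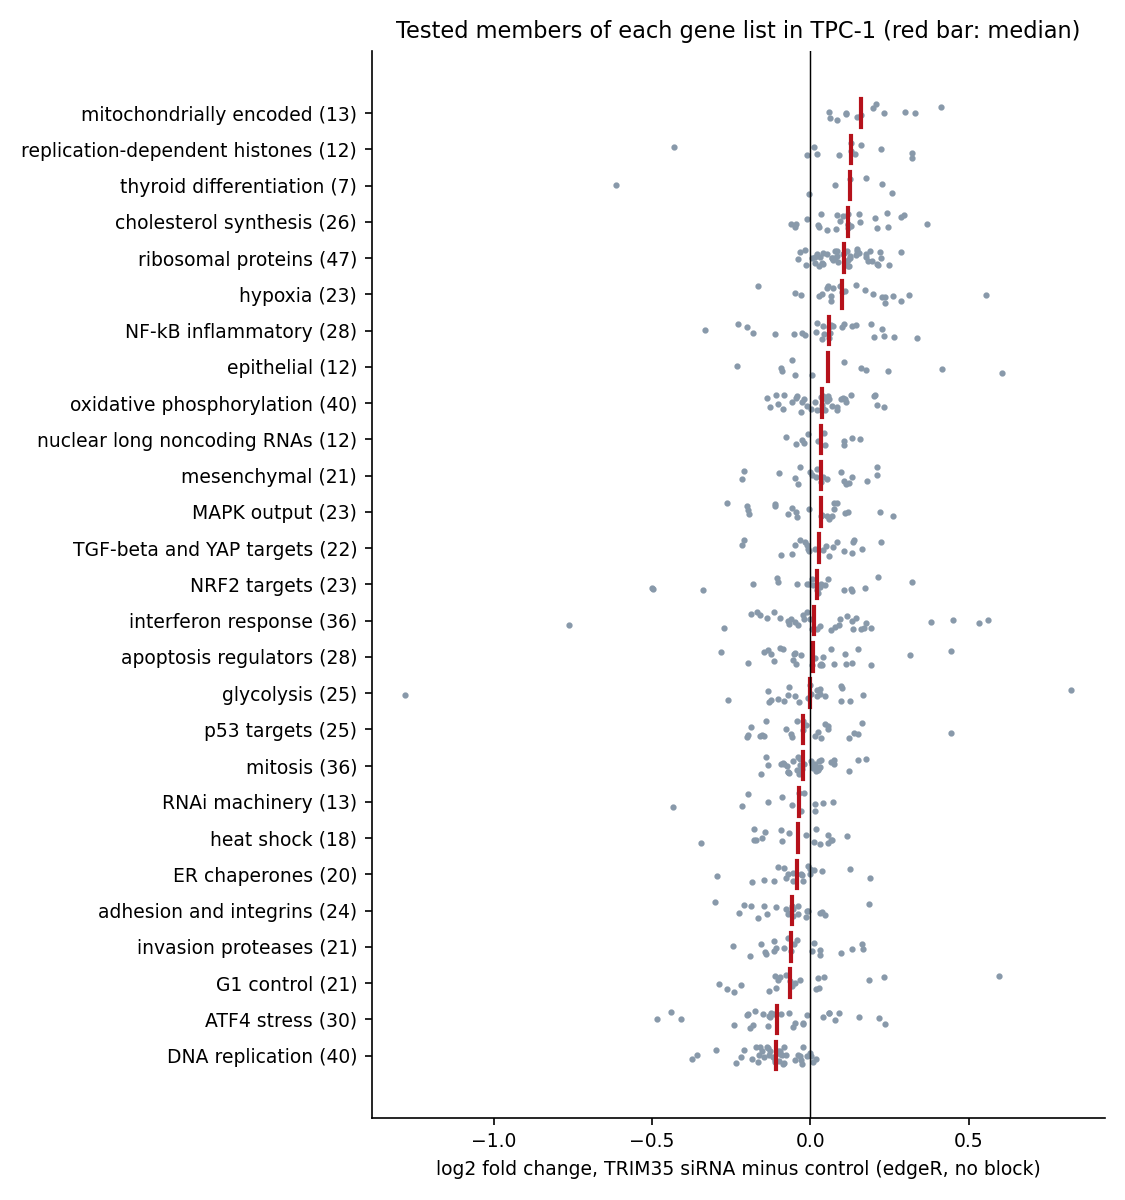
Log2 fold change, TRIM35 siRNA minus control in TPC-1, of every tested member (grey points) of each gene list with at least 5 tested members, with the list median in red and the number tested in brackets. Medians run from -0.11 for DNA replication to 0.16 for mitochondrially encoded genes, and the glycolysis median is at 0.

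Ribosomal protein and mitochondrially encoded genes lay higher, but they also differed between replicates. Ribosomal protein genes lay at a median of 0.11, and 43 of 47 were above 0. RPL38 measured 66.2, 47.8 and 38.5 FPKM with control siRNA against 79.1, 66.0 and 41.3 FPKM with TRIM35 siRNA (0.29, SE 0.24), and RPL7A lay at 0.15 (SE 0.16). The list's medians by number were 0.03, 0.25 and 0.002, so the shift was largest in number 2. In all 3 numbers 16 members were higher, against 14.8% of all tested genes, and none lower. With the block 8 were higher at an edgeR unadjusted p under 0.05 (4.29% of all tested genes) and none lower. Without siRNA library 2 the median was 0.01, and without control library 3 it was 0.001. With the block it was 0.03 without both libraries numbered 2 and 0.16 without those numbered 3. All 13 mitochondrially encoded genes lay above 0, with a median of 0.16, but their medians by number were 0.29, 0.20 and -0.13. MT-ND3, a complex I subunit, measured 2840, 1619 and 1413 FPKM with control siRNA against 3798, 2523 and 1527 FPKM with TRIM35 siRNA (0.41, SE 0.32). MT-CO3, a cytochrome oxidase subunit, lay at 0.23 (SE 0.25). Without siRNA library 1 the list median turned to -0.18, and with the block and without both libraries numbered 1 it was 0.02.

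Library properties moved with these 2 lists. The mitochondrial share of counts was 3.73%, 2.74% and 2.29% in control and 4.65%, 3.16% and 2.19% in siRNA libraries. Gene length moved with the replicate number too. In the shortest of 5 classes of tested genes by exonic length, the median log2 difference of control library 3 from control library 1 was -0.28, and in the longest class it was 0.15. The same medians were -0.29 and 0.13 within the siRNA group. Between siRNA and control they were 0.05 and -0.03, and with offsets for length and GC content and the block they were 0.005 and -0.006. The offsets were fitted to length and GC content in these same libraries, so such small values follow from the fit. With those offsets and the block the ribosomal list's median was 0.09 and the mitochondrial list's 0.06. The part of RNA quality in these lists was not tested.

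**Figure D5:**
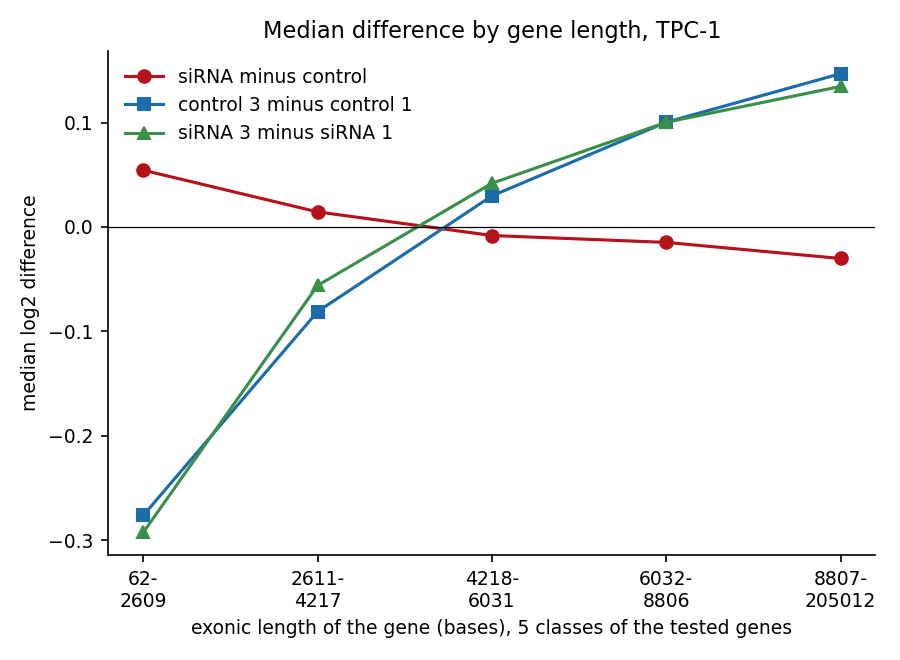
Median log2 difference in 5 classes of the tested genes by exonic length, from the shortest to the longest, for TRIM35 siRNA minus control and for library 3 minus library 1 within each group. The replicate differences run from about -0.28 to 0.15, and the siRNA difference from 0.05 to -0.03.

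Nuclear-encoded oxidative phosphorylation genes had a median of 0.04 over 40 members, with NDUFA2 at 0.21 (SE 0.20) and COX6B1 at 0.20 (SE 0.23). Replication-dependent histones, whose mRNAs lack a poly(A) tail, had a median of 0.13 over the 12 tested of 39 listed. The linker histone H1-2 lay at 0.32 (SE 0.22). Without control library 3 the histone median was 0.03, and with the block and without both libraries numbered 3 it was 0.14.

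Markers of the thyroid follicular cell were detected in part in both groups. Of 20 genes, 7 passed the filter on low counts. The lineage factor PAX8 measured 17.8 to 20.6 FPKM over the 6 libraries and FOXE1 1.29 to 1.96 FPKM, whereas NKX2-1 and the iodide transporter SLC5A5 had no count and thyroglobulin, TG, did not exceed 0.03 FPKM. THRB, a thyroid hormone receptor gene, measured 3.61 to 6.03 FPKM and the homeobox gene HHEX 3.83 to 7.02 FPKM. TSHR, the thyrotropin receptor gene, did not exceed 0.01 FPKM. FOXE1 lay at 0.26 (SE 0.20). Markers of other cell types were near 0. The summed level of 10 fibroblast markers was 1.88 to 2.23 FPKM in control and 1.83 to 2.56 FPKM in siRNA libraries, most of it PDGFRB. The 10 endothelial markers summed to 0.45 to 0.66 and 0.42 to 0.54 FPKM, and the 17 leukocyte markers to 1.03 to 1.4 and 0.66 to 1.53 FPKM. The collagen genes COL1A2 and COL3A1 did not exceed 0.05 FPKM, COL1A1 measured 0.10 to 0.34 FPKM, and the fibroblast marker POSTN had no count. RNA of the K1 line was checked through 51 genes with at least 20 FPKM in K1 and at most 1% of that level in TPC-1. They lay at 0.241% to 0.300% of their K1 level in control and 0.249% to 0.322% in siRNA libraries. These values did not separate the groups.

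The response in TPC-1 was not shown to differ from that in K1. In a fit of all 12 libraries the difference of the siRNA effects passed edgeR's test for 0 of 17447 genes (0%), and 301 (1.73%) had an unadjusted p under 0.05. By DESeq2 the count was 2 genes and by limma-voom with quality weights 3. The smallest adjusted p was 0.0700, for SULF1, which was higher in the siRNA libraries of TPC-1 and not of K1. TRIM35 itself differed by 0.05 (SE 0.23, edgeR adjusted p = 1.00). Of the other genes called with the block, K1 minus TPC-1 differences were -0.34 (SE 0.21) for INSIG1, -0.46 (SE 0.23) for CD24, -0.50 (SE 0.20) for NR4A3, -0.96 (SE 0.46) for SHOC1, -0.54 (SE 0.46) for JUND, -0.51 (SE 0.27) for PNRC1 and 0.24 (SE 0.31) for NCAPD3, each with edgeR adjusted p = 1.00. The genes called with the block were picked by their TPC-1 change, which enters the difference with its sign reversed. The signs of these differences thus follow largely from that choice and are no support for a difference between lines.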

How the data were processed

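The submitters' processing notes name cutadapt 1.9.1 and the build hg38. Which aligner, counter and annotation were used is not given in the sources used here. In 1 table the authors deposited raw counts and FPKM per gene and library; the FPKM values use the library's summed counts as denominator. Counts of the 6 TPC-1 libraries were filtered with filterByExpr (14530 genes tested, and the 47276 others held 0.134% to 0.192% of counts). They were scaled by TMM and tested with edgeR 4.0.16 in R 4.3.3 by quasi-likelihood, with Benjamini-Hochberg adjustment over all tested genes. Residual degrees of freedom were 4 without the block and fewer with it. The test adds spread pooled over genes. Median total degrees of freedom were 10.3 without the block, 29.2 with it and 138 with the offsets added. The calls made with the block thus rest largely on pooled spread. DESeq2 1.42.0 and limma 3.58.1 were alternatives. The scripts were tested on simulated data.

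The labels do not say what a replicate number shares. Deviations from the group means correlated between libraries of the same number at r = 0.54, 0.16 and 0.58 over genes, each above 0.1. Between libraries of different numbers r ran from -0.58 to 0.11, the highest being control 1 with siRNA 2, also above 0.1. Libraries of the same number were thus alike for numbers 1 and 3, and hardly more alike than others for number 2. Deviations within a group depend on each other, since they are taken from that group's mean. These correlations therefore do not show that a number marks a true pair. The numbers were taken to pair the libraries, and values with the number as a block are given beside results they change. No pair of replicates matched within sampling noise.

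Named genes were TRIM35, the 12 per direction with the smallest p at a mean of at least 1 FPKM without overlap, genes with no count in 1 group and at least 5 in each library of the other (at most 6 per direction), genes called by DESeq2 or limma, and up to 4 members per list of 31 lists (all for glycolysis); 1 gene that the list rule takes is not reported here. The comparison and the lists were chosen with earlier results of these data known. Antisense, overlapping and near-identical genes are uncertain, since strandedness is not given. With 3 libraries per group, the spread between libraries, beside depth, limits which small changes can be resolved. Lists were described by counts and medians, with no list test.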

Additional observations from a re-analysis of the deposited data

How the results depend on the processing

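Without a block, 0 genes were called in TPC-1 by edgeR with RLE scaling, with a filter at a mean of 1 FPKM, in a fit of all 12 libraries, without K1-restricted genes, with length and GC offsets, by limma on log2(FPKM + 0.1) or log2(FPKM + 1), or without any single library (0 to 0). Without the filter on low counts 2 genes were called, and 1 each by DESeq2 and limma-voom with quality weights. The replicate block gave 8 calls and, with length and GC offsets, 103; the block without replicate 1, 2 or 3 gave 19, 81 and 31. The offsets and the left-out replicates under the block were chosen after seeing the data, and the cause of the higher counts was not tested. For the difference between lines, 4 genes were called without the filter, 2 by DESeq2, 3 by voom, and 0 to 1 when a library was left out (1 without TPC-1 siRNA library 3 and 1 without K1 control library 3); the replicate block gave 0. TRIM35 stayed between -0.28 and -0.18 when a library was left out and was called under none of its alternatives. The invasion protease median moved to -0.11, 0.0025 and 0.0055 with the block without replicate 1, 2 and 3, and lay between -0.073 and -0.0078 without single libraries. The mesenchymal median lay between -0.046 and 0.084 without single libraries, that of mitosis between -0.06 and 0.05, of epithelial genes between 0.01 and 0.11 and of DNA replication between -0.18 and -0.003. PKM, TRAF3, CCNE2 and CDK4 changed sign under at least 1 alternative. PKM lay at 0.0018 with the FPKM filter, 0.0021 with the block, 0.0031 in both limma fits on FPKM, 0.033 with length and GC offsets, 0.035 with offsets and the block, and 0.089 with the block without replicate 2. When single libraries were left out, PKM lay between -0.134 and 0.090 (above 0 for 4 of the 6) and TRAF3 between -0.117 and 0.051 (above 0 for 2). CCNE2 lay between -0.52 and 0.031 and CDK4 between -0.48 and 0.0065, both above 0 only without siRNA library 1. At 3 libraries per group, genes under about 1 FPKM, such as SULF1 and ALDOC, rest on few counts.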

Other observations

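With length and GC offsets added to the replicate block, a setting chosen after seeing the data, 103 of 14339 genes were called (0.718%), 47 higher and 56 lower, all but SULF1, GASK1B and a gene without a symbol by less than 2-fold. Among the higher genes were CCNG2, an atypical cyclin of quiescent cells, at 0.35 (adjusted p = 4.14e-04), TXNIP, which limits glucose uptake, at 0.35 (5.52e-04), the CDK inhibitor genes CDKN1B at 0.25 and CDKN2B at 0.52, and PIK3IP1 at 0.66. By replicate number the TXNIP differences were 0.57, 0.19 and 0.33. SCD, the stearoyl-CoA desaturase, lay at 0.31, HMGCS1 at 0.30, ABCA1, the cholesterol exporter, at 0.30, and the mitophagy receptors BNIP3 and BNIP3L at 0.29 and 0.25. Also called higher were ELF3 at 0.61, RPL38 at 0.27 and MT-ND3 at 0.35.

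Lower genes under that setting included CCND1 at -0.26, CDK4 at -0.25 and CCNE2, cyclin E2, at -0.36. The replication genes MCM2, MCM10 and ORC1 lay at -0.38, -0.31 and -0.41. UTP20, DDX21 and NOP14, which act in ribosome assembly, lay at -0.31, -0.30 and -0.31, and the RNA polymerase I subunits POLR1A at -0.29 and POLR1F at -0.26. CAD, which starts pyrimidine synthesis, lay at -0.29, ODC1, which starts polyamine synthesis, at -0.24, the transferrin receptor TFRC at -0.31 and HSPA8 at -0.39. Also called lower were LAMB3 at -0.31, HYOU1 at -0.28 and DGCR8 at -0.41. These genes were picked for mention after their values were seen, and their groupings were not tested. None of the 103 was called by the same edgeR test without the block (lowest adjusted p = 0.304, SULF1).

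By GENCODE 29 biotype, the median change without a block was 0.09 over 531 lincRNAs, 0.04 over 645 antisense genes and -0.01 over 12139 protein-coding genes.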
